A study of Mus musculus with 8 samples.

Results

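Small leucine-rich proteoglycans (SLRPs) were examined in RNA-Seq of cultured mouse articular chondrocytes, the cells of joint cartilage, which had been exposed to IL-1β, a cytokine used to model joint inflammation. The group comprised 10 genes chosen by symbol, *Dcn*, *Bgn*, *Aspn*, *Fmod*, *Lum*, *Prelp*, *Omd*, *Ogn*, *Epyc* and *Chad*, among 54658 gene symbols in the count table. All 10 were listed, and 9 were among the 14404 genes with enough counts to be tested; *Aspn* was not. The chondrocytes were primary cells from femoral heads of wild-type mice aged 3 weeks and received IL-1β at 1 ng/mL (n = 4) or vehicle (n = 4) for 24 h. The labels do not say whether the samples of a group came from separate animals or cultures, so that p-values measure only the spread between these samples, which may be technical. The totals ran from 10992355 to 17456063 counts per sample.

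SLRPs are secreted proteins built around a core of leucine-rich repeats, and many of them carry glycosaminoglycan chains of chondroitin, dermatan or keratan sulfate. They bind fibrillar collagens and shape how fibrils form and pack in cartilage, tendon, cornea and skin. Several bind growth factors such as those of the TGF-β family, and soluble biglycan and decorin are known ligands of Toll-like receptors. The family is divided into classes by sequence: *Dcn*, *Bgn* and *Aspn* belong to class I, *Fmod*, *Lum*, *Prelp* and *Omd* to class II, *Ogn* and *Epyc* to class III, and *Chad* to class IV.

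The genes did not move together. Among the 9 tested, *Dcn* was the 1 DEG that was higher after IL-1β, and *Omd*, *Fmod*, *Ogn* and *Chad* were the 4 DEGs that were lower. DEGs had an absolute log2 fold change above 1 and an adjusted p-value under 0.05 by edgeR's quasi-likelihood test with Benjamini-Hochberg adjustment over all 14404 genes. By this definition 2.86% of all genes tested were DEGs with a higher level and 2.35% were DEGs with a lower level. By the adjusted p-value alone, 2 genes rose (*Dcn* and *Prelp*) and 7 fell, where 20.4% of all genes rose and 19.8% fell. The groups did not overlap for any of the 9 genes, 2 of them higher and 7 lower after IL-1β, where 18.7% and 18.2% of all genes had such groups. The median log2 fold change was -0.65 over the 9 genes and -0.0012 over all genes tested.

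Several of these genes are neighbours in the mouse genome. *Prelp* (chr1:133910304-133921414, minus strand) and *Fmod* (chr1:134037254-134048277, plus strand) lie 115.8 kb apart and changed in opposite directions. *Dcn* (chr10:97479609-97518143) and *Lum* (chr10:97565128-97572703), both on the plus strand and 47.0 kb apart, also changed in opposite directions, and *Epyc* (chr10:97644068-97682454) follows on the same strand. *Aspn*, *Omd* (chr13:49582462-49592822) and *Ogn* (chr13:49608046-49624501) form a row on the plus strand of chromosome 13, and all 3 were at lower levels after IL-1β, *Aspn* on few reads. *Bgn* (chrX:73483602-73495933) and *Chad* (chr11:94565047-94569127) have no neighbour among the 10 genes. All positions are on GRCm38.

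The 250 bases before the transcription start are shown for the chromosome 1 pair, whose levels moved apart, and for *Omd* and *Ogn*, the chromosome 13 pair that fell together. The sequences are RefSeq's on GRCm38.p6, written 5′ to 3′ on the gene's strand, and capitals mark a match to the C/EBP motif TTNNGNAA, which in both genes that hold it reads on the opposite strand. The windows are chr1:134037004-134037253 (plus strand) for *Fmod*, chr1:133921402-133921651 (minus strand) for *Prelp*, chr13:49582212-49582461 (plus strand) for *Omd* and chr13:49607765-49608014 (plus strand) for *Ogn*.
Fmod: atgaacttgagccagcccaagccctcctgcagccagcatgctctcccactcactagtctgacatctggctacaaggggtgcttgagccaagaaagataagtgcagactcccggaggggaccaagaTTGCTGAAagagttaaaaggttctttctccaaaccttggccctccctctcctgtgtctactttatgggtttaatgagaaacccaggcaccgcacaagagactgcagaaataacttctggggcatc
Prelp: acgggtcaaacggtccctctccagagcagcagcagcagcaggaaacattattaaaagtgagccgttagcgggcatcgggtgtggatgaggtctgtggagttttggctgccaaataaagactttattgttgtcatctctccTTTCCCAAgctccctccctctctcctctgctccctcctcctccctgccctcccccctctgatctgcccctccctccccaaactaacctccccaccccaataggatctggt
Omd: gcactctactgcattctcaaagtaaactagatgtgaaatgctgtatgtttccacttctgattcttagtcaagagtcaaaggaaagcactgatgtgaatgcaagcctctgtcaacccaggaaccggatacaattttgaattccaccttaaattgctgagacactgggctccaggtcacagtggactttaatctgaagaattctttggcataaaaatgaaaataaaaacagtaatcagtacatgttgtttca
Ogn: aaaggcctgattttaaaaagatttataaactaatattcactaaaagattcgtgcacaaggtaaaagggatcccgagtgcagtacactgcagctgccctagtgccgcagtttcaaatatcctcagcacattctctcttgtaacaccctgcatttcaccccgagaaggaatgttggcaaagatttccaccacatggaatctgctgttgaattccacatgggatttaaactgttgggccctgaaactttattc
Windows that also held the first 50 bases of the transcript were searched on both strands for 3 motifs of factors that inflammatory signals can activate, and 8 of the 10 genes had such a window. *Dcn*, the DEG that rose, and *Lum* had no window and were not searched. The NF-κB motif and the AP-1 letters TGANTCA were found in none of the 8, against 1.63% and 7.81% of 32851 promoter windows of all genes. The C/EBP letters were found in 4 of the 8 genes (*Fmod*, *Prelp*, *Aspn* and *Epyc*), against 40.7% of all windows. That share counts windows and not genes. The 8 genes had 9 windows, since *Epyc* had an additional window, and both windows of *Epyc* held the letters. *Fmod*, which fell, and *Prelp*, which rose, both held C/EBP letters, and *Omd* and *Ogn* held none of the 3 motifs. Whether any motif bears on a change was not tested. A match describes letters in the window and is not a measured binding site.

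**Figure D1:**
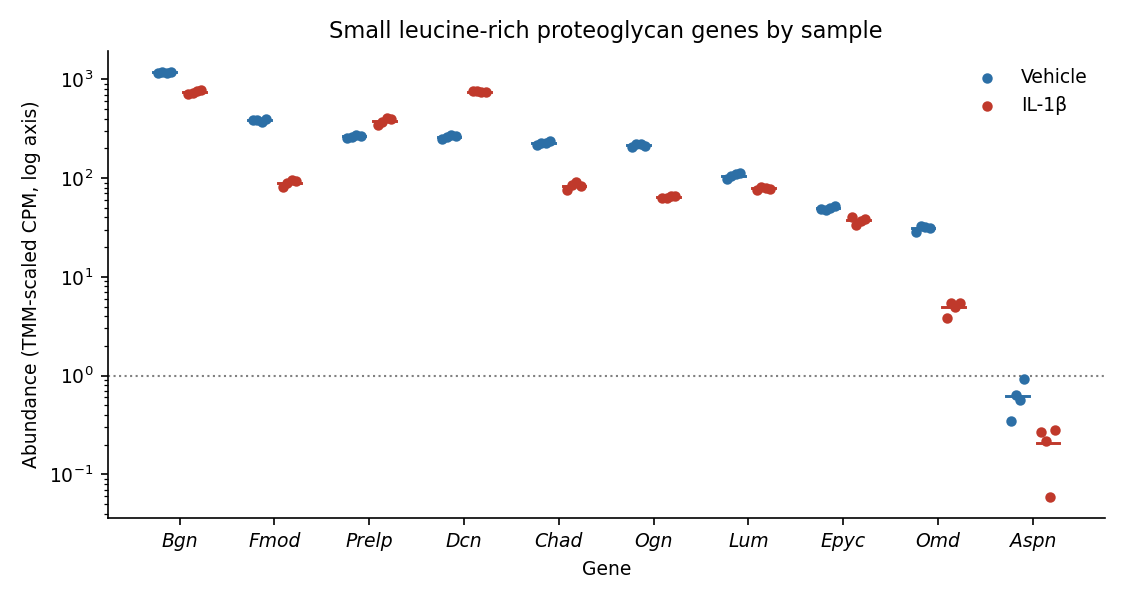
TMM-normalized CPM of the 10 SLRP genes in the 4 vehicle samples and the 4 IL-1β samples, on a log10 axis; points are samples, bars are group means and the dotted line marks a CPM of 1. *Dcn* and *Prelp* sat higher after IL-1β, the other genes lower, and the groups of samples did not overlap.

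In class I, decorin (*Dcn*), which binds collagen fibrils and limits their lateral growth, carried the rise. Its normalized level was 251, 262, 277 and 265 CPM (counts scaled to a common library size after TMM normalization) in the vehicle samples 1 to 4 and 756, 761, 753 and 751 CPM in the IL-1β samples 1 to 4. All 4 IL-1β samples were above all vehicle samples and lay close to each other. The mean rose from 264 ± 10.5 to 755 ± 4.11 CPM (SD, n = 4), a 2.86-fold increase (log2 fold change 1.52, SE 0.0323, adjusted p = 6.32e-25). In bulk RNA, a change in the number of cells that express a gene and a change in RNA per cell cannot be told apart, here and for every gene below.

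Biglycan (*Bgn*), the closest relative of decorin and likewise a carrier of chondroitin or dermatan sulfate, moved the other way. It was at 1161, 1183, 1175 and 1191 CPM in vehicle samples and at 721, 736, 769 and 777 CPM in IL-1β samples. The fall from 1178 ± 12.9 to 750.4 ± 26.7 CPM (log2 fold change -0.65, SE 0.0296, adjusted p = 5.99e-17) was beyond the spread between samples but smaller than the log2 change of 1 set for DEGs.

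Asporin (*Aspn*), a class I protein without the usual glycosaminoglycan attachment site that binds collagen and TGF-β, was barely detected. It shares 7 exon bases with *Cenpp*, a gene on the opposite strand with means of 0.411 (IL-1β) and 0.802 CPM (vehicle). It had 6, 11, 8 and 14 reads in the vehicle samples and 3, 3, 1 and 4 reads in the IL-1β samples, so that the groups did not overlap. Summed over samples these were 39 of 63803575 and 11 of 56053642 reads, a ratio of IL-1β to vehicle of 0.321 (exact 95% interval 0.148 to 0.639, which covers counting error only). It was below the filter on low counts and was not among the genes tested. With no filter, its log2 fold change was -1.60 (edgeR, adjusted p = 0.0113). In that fit the prior degrees of freedom were infinite, so that the spread was pooled over genes. This p-value therefore does not measure the spread of *Aspn* itself between samples.

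Class II held the largest falls and 1 rise. Fibromodulin (*Fmod*), a keratan sulfate proteoglycan that binds type I and type II collagen fibrils, was at 385, 391, 370.3 and 393 CPM in vehicle samples, against 81.9, 89.1, 96.2 and 93.2 CPM in IL-1β samples. No IL-1β sample came near the vehicle samples. The mean fell from 385 ± 10.4 to 90.1 ± 6.18 CPM, a 4.26-fold lower level (log2 fold change -2.09, SE 0.0394, adjusted p = 3.32e-26).

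Osteomodulin (*Omd*), also called osteoadherin and best known from bone matrix, had the largest change among the 9 genes tested. Its level was 28.5, 33.0, 32.02 and 31.4 CPM in the vehicle samples and 3.87, 5.48, 4.99 and 5.46 CPM in the IL-1β samples. It fell 6.23-fold, from 31.2 ± 1.93 to 4.95 ± 0.753 CPM (log2 fold change -2.64, SE 0.0888, adjusted p = 4.29e-20). Its standard error was also the largest of the 9, on the fewest reads among them.

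Lumican (*Lum*), which binds collagen near the same site as fibromodulin, fell by much less than *Fmod*. It was at 97.3, 105, 110 and 112 CPM in vehicle samples and dropped to 76.1, 81.7, 78.8 and 78.5 CPM in IL-1β samples. The means of 106 ± 6.46 and 78.8 ± 2.28 CPM differed by a log2 fold change of -0.43 (SE 0.0411, adjusted p = 1.06e-09), with no overlap of the samples.

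*Prelp*, whose basic amino-terminal region binds heparan sulfate and which is abundant in cartilage, was the class II gene that rose. It was at 256, 260, 273 and 270.2 CPM in the vehicle samples, and at 347, 369, 410 and 395 CPM after IL-1β. All IL-1β samples were higher than all vehicle samples, and the mean rose from 265 ± 8.11 to 380 ± 28.1 CPM (log2 fold change 0.52, SE 0.0404, adjusted p = 1.01e-11). Of its exon bases, 350 (9.68%) overlap the antisense gene *Gm15851*, which had means of 0.313 (IL-1β) and 0.217 CPM (vehicle); whether reads were counted by strand is not given in the sources used here.

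Both class III genes fell. Osteoglycin (*Ogn*), also called mimecan, was at 207, 223, 224 and 213 CPM in vehicle samples, against 62.4, 63.2, 65.8 and 66.0 CPM after IL-1β. The IL-1β samples were tightly grouped and far below the vehicle samples, and the mean fell 3.36-fold, from 217 ± 8.18 to 64.3 ± 1.77 CPM (log2 fold change -1.75, SE 0.0346, adjusted p = 1.10e-25). Epiphycan (*Epyc*), a cartilage proteoglycan of the growing epiphysis, was at 48.3, 47.2, 49.7 and 52.3 CPM in vehicle samples, against 40.6, 33.9, 36.9 and 38.6 CPM after IL-1β. Its change was the smallest in size of the 9 (49.4 ± 2.20 to 37.5 ± 2.85 CPM, log2 fold change -0.40, SE 0.0507, adjusted p = 1.81e-07), and the groups did not overlap. *Epyc* shares 1041 exon bases (40.6%) with *Gm10754* on the opposite strand, itself with means of 0.241 (IL-1β) and 0.138 CPM (vehicle).

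Chondroadherin (*Chad*), the class IV protein that binds collagen and integrins on chondrocytes and carries no glycosaminoglycan chains of the usual kind, was at 217, 230, 225 and 236 CPM with vehicle. With IL-1β it was at 76.3, 85.5, 91.4 and 83.5 CPM, below every vehicle sample. The mean fell 2.68-fold, from 227 ± 7.72 to 84.2 ± 6.22 CPM (log2 fold change -1.42, SE 0.0388, adjusted p = 2.67e-22). *Chad* lies within the body of *Acsf2* on the other strand but shares 0 exon bases with it. *Acsf2* itself had means of 18.6 (IL-1β) and 21.9 CPM (vehicle).

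**Figure D2:**
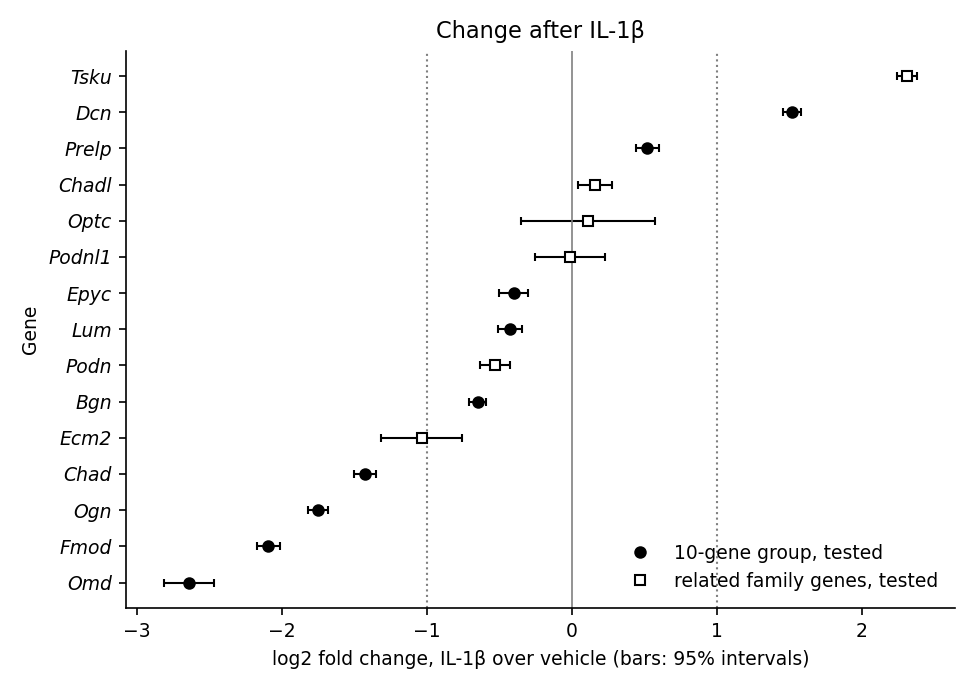
Log2 fold change (IL-1β against vehicle, edgeR) of the tested SLRP genes and of tested relatives in the family; bars span 95% intervals from the standard error and lines mark log2 fold changes of -1, 0 and 1. *Dcn* (1.52) is the member past the upper line and *Omd* (-2.64), *Fmod* (-2.09), *Ogn* (-1.75) and *Chad* (-1.42) are past the lower line.

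The same comparison was made for 8 relatives of the family outside the 10 genes, of which 6 were tested. *Tsku*, encoding tsukushi, a secreted relative that binds BMP and other growth factors, was 1 DEG that rose, from 59.2 ± 2.94 to 294 ± 7.36 CPM (log2 fold change 2.31, adjusted p = 2.35e-28), a larger log2 change than that of *Dcn*. *Ecm2*, which lies in the chromosome 13 row with *Omd* and *Ogn*, was 1 DEG that fell, from 6.14 to 2.93 CPM (log2 fold change -1.03, adjusted p = 7.91e-07). *Podn* fell by 0.53 on the log2 scale (adjusted p = 2.2e-09). *Chadl*, the nearest relative of *Chad*, changed by 0.16 on the log2 scale (adjusted p = 0.0352) with overlapping groups (0.051 with no filter on low counts), and 1023 of its exon bases (19.5%) are shared with *L3mbtl2*. *Optc* (0.11, adjusted p = 0.748) and *Podnl1* (-0.01, adjusted p = 0.943) did not pass the test. *Kera*, keratocan of the cornea and tendon, which lies between *Lum* and *Epyc*, had 1 read over the IL-1β samples and 2 over the vehicle samples, and *Nyx* had 13 and 17 reads.

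Levels of different genes were compared as CPM per kilobase of the gene length listed in the table. In the vehicle samples *Bgn* had the highest level, at 193 CPM per kilobase, followed by *Chad* (135), *Fmod* (116), *Ogn* (84.4), *Prelp* (73.3), *Dcn* (45.2), *Lum* (43.3), *Epyc* (19.3), *Omd* (13.9) and *Aspn* (0.263). Only *Dcn* (43.0 to 47.4) and *Lum* (39.8 to 45.7) overlapped among neighbours of this order. In the IL-1β samples the order was *Dcn* (129), *Bgn* (123), *Prelp* (105), *Chad* (50.1), *Lum* (32.2), *Fmod* (27.2), *Ogn* (25.1), *Epyc* (14.6), *Omd* (2.20) and *Aspn* (0.0881). There, *Dcn* (128.7 to 130.3) did not overlap *Bgn* (118 to 127), and *Fmod* (24.8 to 29.1) and *Ogn* (24.3 to 25.7) overlapped.

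As a share of the summed CPM per kilobase of the 10 genes, *Dcn* went from 6.24% ± 0.183 to 25.4% ± 0.958 and *Prelp* from 10.1% ± 0.208 to 20.6% ± 0.831. The share of *Chad* went from 18.7% to 9.83%, that of *Fmod* from 16.1% to 5.35% and that of *Ogn* from 11.7% to 4.93%. *Bgn* held 26.7% with vehicle and 24.2% with IL-1β, although its level fell. These shares are descriptions and add up to a whole, so that each depends on the others. They also depend on the length used: per kilobase of the principal coding transcript (1758 bases for *Dcn* against a listed 5838), *Dcn* went from 13.3% to 43.1% and *Bgn* from 43.1% to 31.1%, and *Dcn* had rank 2 of the 10 with vehicle.

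**Figure D3:**
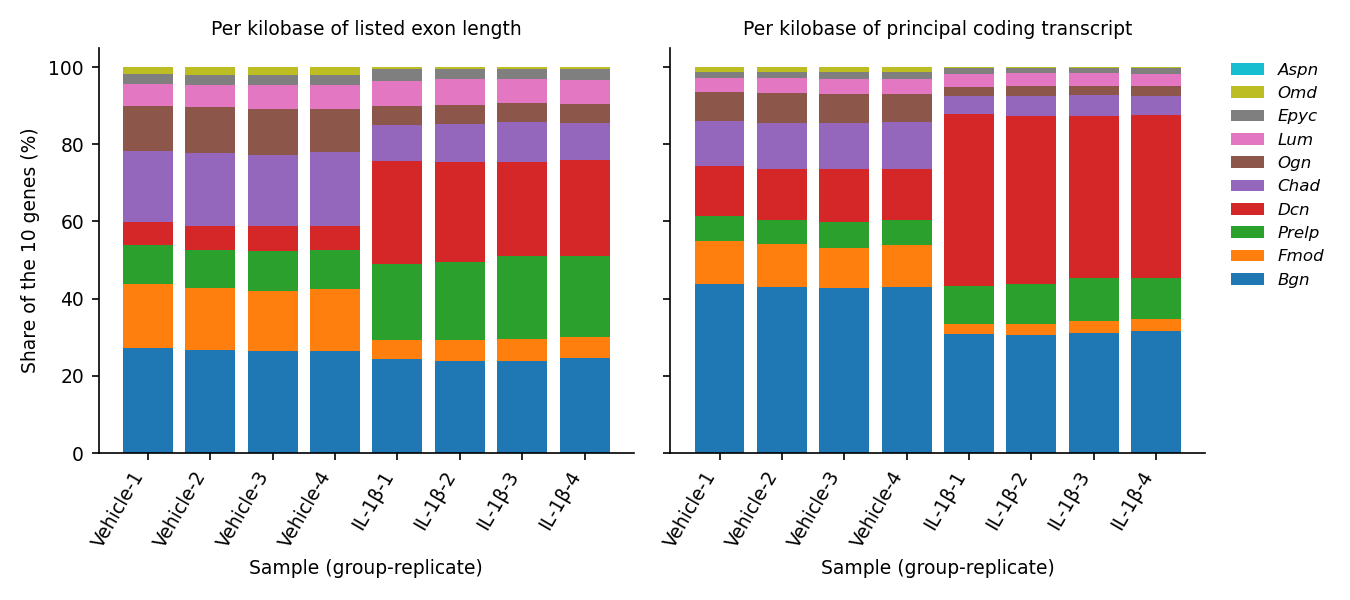
Share (%) of each SLRP gene in the sum of the 10 genes' CPM per kilobase of listed gene length, as stacked bars, 1 for each of the 4 vehicle and 4 IL-1β samples (left), and the same per kilobase of the principal coding transcript (right). On the left, *Dcn* (6.24% to 25.4%) and *Prelp* (10.1% to 20.6%) take larger shares after IL-1β, *Chad*, *Fmod* and *Ogn* smaller ones.

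The summed level of the 10 genes was 2722 ± 48.5 CPM with vehicle, against 2246 ± 64.4 CPM after IL-1β, or 0.273% and 0.224% of all counts. This sum is not divided by gene length, and the size of its fall depends on that. Per kilobase of listed length it was 702 to 738 with vehicle and 487 to 526 after IL-1β. Per kilobase of the coding transcript, a length chosen after seeing the data, it was 1099 to 1148 and 969 to 1019. Without *Dcn* the summed CPM went from 2458 ± 41.4 to 1491 ± 67.0 CPM. The sum of *Dcn* and *Bgn*, both usual carriers of chondroitin or dermatan sulfate chains, was 1441 ± 20.1 CPM with vehicle, against 1506 ± 23.8 CPM after IL-1β.

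Ratios within a sample do not depend on the scaling between samples, and they were compared for 6 pairs, each of 1 class or of neighbours, by an exact permutation test, two-sided, whose smallest possible p-value with 4 against 4 samples is 0.0286. All 6 pairs reached it (0.0286 after Benjamini-Hochberg adjustment over the 6), with no overlap of the groups. For *Dcn* with *Bgn*, *Lum* or *Aspn*, and for *Fmod* with *Prelp*, both genes already moved in opposite directions without overlap. Their p-values were fixed by this and add no further evidence. The log2 ratio of *Dcn* to *Bgn* per kilobase went from -2.10 to 0.07, a difference of 2.17, so that *Dcn* went from well below *Bgn* to slightly above it. The log2 ratio of *Dcn* to *Lum*, its neighbour on chromosome 10 and of another class, went from 0.06 to 2.01. The ratio of *Fmod* to *Prelp* moved from 0.67 to -1.95 (difference -2.62), and that of *Fmod* to *Lum* went from 1.43 to -0.24 (difference -1.67). In the chromosome 13 pair, *Omd* fell more than *Ogn*: the log2 ratio of *Ogn* to *Omd* went from 2.61 to 3.52 (difference 0.92). The differences between groups do not depend on gene length, but the ratios themselves do: per kilobase of the principal coding transcript, a length chosen after seeing the data, *Dcn* to *Lum* went from 1.79 to 3.74 and *Dcn* to *Bgn* from -1.70 to 0.47. The ratio of *Dcn* to *Aspn* rests on the 1 to 14 reads of *Aspn* (difference 3.24).

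**Figure D4:**
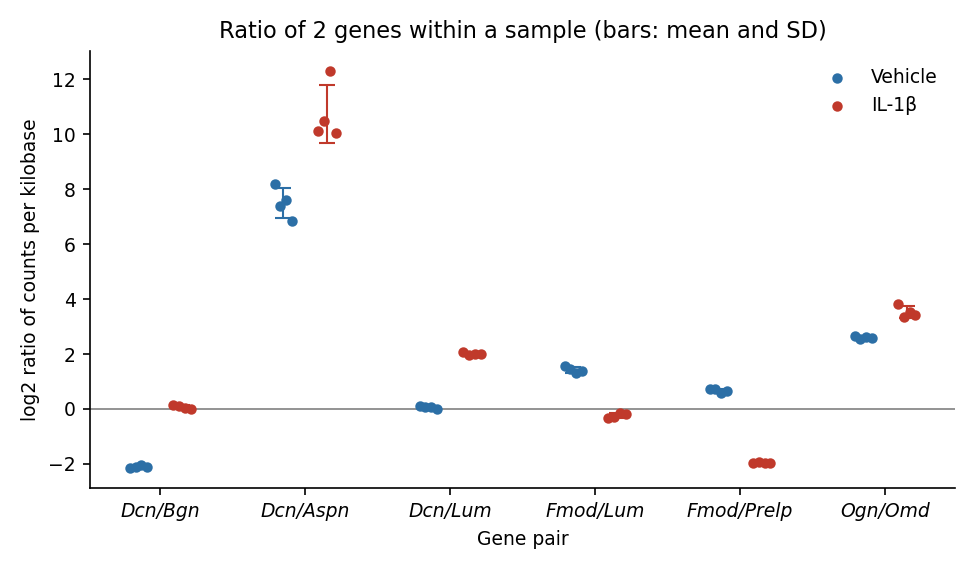
Log2 ratio of CPM per kilobase for 6 pairs of SLRP genes in each vehicle and IL-1β sample; points are samples and bars show the group mean ± SD. *Dcn*/*Bgn* moves up by 2.17 and *Fmod*/*Prelp* moves down by 2.62, and the groups are apart in every pair.

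Among the genes that make the sugar chains of these proteins, 1 was a DEG. For this list and those below, the comparison is all genes tested. Of those, 20.4% rose and 19.8% fell by the adjusted p-value, and 2.86% and 2.35% were DEGs that rose and fell. Of 6 genes for the glycosaminoglycan linker, 0 were DEGs and 3 fell by the adjusted p-value, among them *Xylt1*, the xylosyltransferase that starts the chain, from 295 ± 6.35 to 185 ± 2.35 CPM (log2 fold change -0.67, adjusted p = 6.03e-17). Of 15 tested genes for chondroitin and dermatan sulfate, 4 rose and 7 fell by the adjusted p-value, with a median log2 fold change of -0.19. The 1 DEG was *Chsy3*, a chondroitin sulfate synthase, which fell from 50.5 ± 1.52 to 17.8 ± 0.655 CPM (log2 fold change -1.49, adjusted p = 8.08e-20). *Dse*, the epimerase that turns chondroitin into dermatan sulfate, was the most abundant and fell from 249.4 ± 4.71 to 197 ± 1.59 CPM (log2 fold change -0.34, adjusted p = 1.84e-10). Of 8 tested genes for keratan sulfate and tyrosine sulfation, 2 rose, 2 fell and 4 did not pass the test. *Papss2*, which makes the sulfate donor, was the most abundant of these and fell from 160.1 ± 4.32 to 96.3 ± 0.931 CPM (log2 fold change -0.73, adjusted p = 1.48e-17).

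The collagens that SLRPs bind mostly fell. Of 13 tested genes, 11 fell by the adjusted p-value, 7 of them as DEGs, 1 rose and 1 did not pass the test, with a median log2 fold change of -1.03. *Col2a1*, the main fibrillar collagen of cartilage, fell from 11191 ± 195 to 2844 ± 117 CPM (log2 fold change -1.98, adjusted p = 4.08e-30). The cartilage fibril genes *Col11a2* (-2.04), *Col9a1* (-1.88) and *Col11a1* (-1.63) also fell, given as log2 fold changes, as did *Col6a3* (-1.36) and *Col1a2* (-1.10).

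Receptors and proteases linked to these proteins mostly rose. All 7 tested genes of the innate receptor list for soluble biglycan and decorin rose by the adjusted p-value, 3 of them as DEGs. The list includes *Myd88*, a cytosolic adaptor and not a receptor, which had the smallest of these changes (log2 fold change 0.12, adjusted p = 0.0331). *Tlr2* rose from 13.2 ± 0.465 to 58.7 ± 3.31 CPM (log2 fold change 2.15, adjusted p = 8.60e-23), its co-receptor *Cd14* from 3.85 ± 0.395 to 14.0 ± 0.428 CPM (1.86, adjusted p = 9.30e-15) and *Cd44* from 114 ± 6.49 to 325 ± 13.8 CPM (1.51, adjusted p = 5.66e-23). Of 9 tested proteases that cleave SLRPs, 5 rose, 1 fell and 3 did not pass the test. The 3 DEGs were matrix metalloproteinases: *Mmp3* rose from 23.6 ± 1.47 to 1055 ± 69.0 CPM (log2 fold change 5.48, adjusted p = 1.12e-33), *Mmp13* from 32.1 ± 2.10 to 211 ± 4.94 CPM (2.71, adjusted p = 1.02e-28) and *Mmp12* from 0.264 ± 0.106 to 3.18 ± 0.393 CPM (3.55, adjusted p = 1.31e-11). Of 9 tested growth factors and growth factor receptors that SLRPs bind, 4 rose, 4 fell and 0 were DEGs. *Lrp1*, an endocytic receptor that takes up decorin, was the most abundant and rose from 2059 ± 29.7 to 2512 ± 82.4 CPM (log2 fold change 0.29, adjusted p = 4.47e-10).

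**Figure D5:**
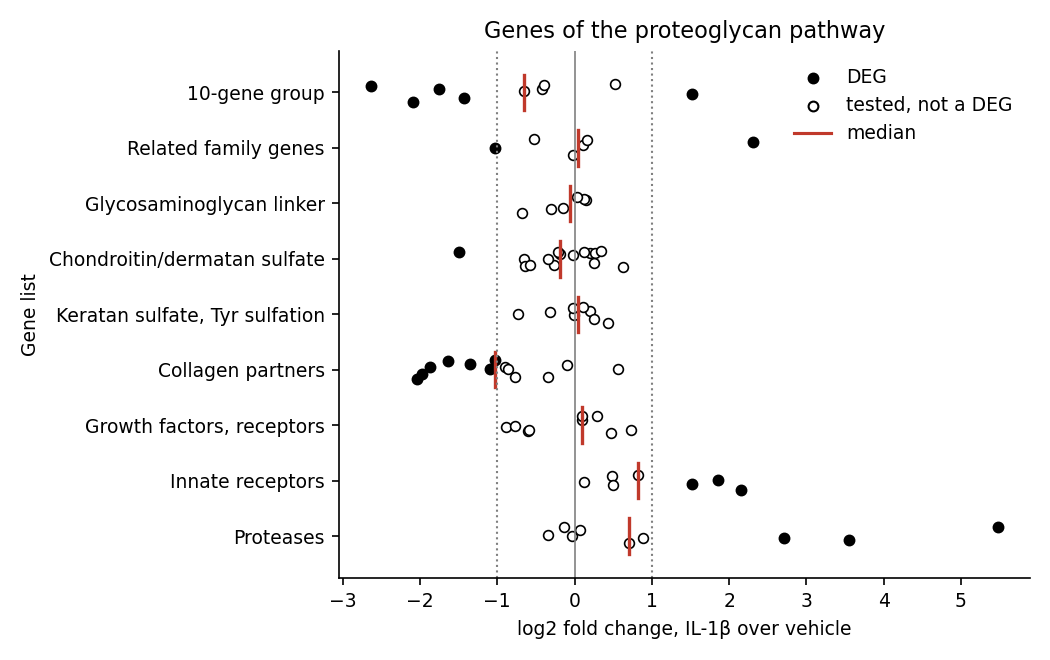
Log2 fold change (IL-1β against vehicle, edgeR) of each tested gene in the SLRP group, its relatives and 7 lists of genes linked to SLRPs; points are genes, filled where they were DEGs, and red bars mark medians. The collagens lie mostly below 0 (median -1.03) and the genes of the innate receptor list all above 0 (median 0.83).

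The cells carried the defining genes of chondrocytes, and all 8 of these markers were DEGs that fell with IL-1β, with a summed level of 14702 to 15272 CPM in the vehicle samples and 3698 to 4067 CPM in the IL-1β samples. The largest of these log2 fold changes were those of *Acan* (-2.37) and *Comp* (-2.33). Markers of other cell types were examined beside the rise of *Dcn*. Of 6 synovial and dermal fibroblast markers, 3 were tested and 2 rose (*Pdgfra* and *Cd34*), with a sum of 49.6 to 53.8 CPM in vehicle samples and 71.3 to 74.0 CPM after IL-1β, whereas *Thy1*, *Pi16* and *Dpp4* were near 0. Of 5 tendon and ligament markers 3 were tested and 1 rose (*Thbs4*, log2 fold change 0.28, adjusted p = 0.0411), with sums of 42.8 to 47.2 and 45.0 to 49.1 CPM and with *Tnmd* near 0. These sums were mostly *Scx*, with means of 32.7 (vehicle) and 35.3 CPM (IL-1β). *Scx* (log2 fold change 0.12, adjusted p = 0.0733) and *Mkx* (-0.36, adjusted p = 0.06) did not pass the test. Of 6 osteoblast markers 5 were tested and all 5 fell, 4 of them as DEGs, with sums of 191 to 198 and 91.6 to 107 CPM. This was the direction of 7 of the 9 tested SLRP genes and of all 8 chondrocyte markers. The 4 DEGs were *Ibsp* (log2 fold change -3.69), *Bglap* (-1.62), *Sp7* (-1.42) and *Bglap2* (-1.10). *Runx2* (-0.52), not a DEG, was the most abundant, with means of 96.0 (vehicle) and 66.6 CPM (IL-1β). Of 6 macrophage markers 2 were tested, of which *Cd68* rose and *Lyz2* fell, with sums of 11.5 to 12.6 and 15.9 to 19.0 CPM and *Ptprc*, *Adgre1* and *Itgam* near 0. Of 5 smooth muscle and pericyte markers 2 were tested and both fell (*Acta2*, -2.03, and *Cspg4*, -1.0, as log2 fold changes), with sums of 794 to 866 and 390 to 440 CPM. These sums were mostly *Cspg4*, with means of 819 (vehicle) and 409 CPM (IL-1β), whereas *Myh11*, *Rgs5* and *Des* were near 0. Of 5 endothelial markers 0 were tested, with sums up to 1.57 and 1.6 CPM. The part of other cells in the changes of the SLRP genes was not tested.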

How the data were processed

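RNA-Seq counts of 8 samples of primary murine chondrocytes were used. The authors trimmed reads with cutadapt, aligned them with STAR (2.4.2a in the submitters' processing notes) to mm10 with GENCODE and counted them by gene with featureCounts of Subread. The deposited values are counts in whole numbers, 1 row for each gene symbol. Their methods name RUVseq for batch effects, and whether these counts precede or follow it is not given in the sources used here. The authors deposited a gene length in bases (unit: other) beside the counts, used here only for CPM per kilobase.

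TMM factors scaled the libraries, and the quasi-likelihood F test of edgeR 4.0.16 (with limma 3.58.1 in R 4.3.3) compared the treatments, the single term of the model, in 14404 of 54658 genes, those whose CPM exceeded 1 in 4 or more samples (prior degrees of freedom 20.9). In the fit with no filter on low counts the prior degrees of freedom were infinite. DEGs passed 0.05 after Benjamini-Hochberg adjustment with an absolute log2 fold change above 1. A count of 3, taken as the floor, corresponds to 0.173 to 0.270 CPM, and that floor and the exact interval for *Aspn* cover counting error only, since no molecular identifiers were used. On data simulated for this comparison with 200 changed genes among 14204 tested, edgeR recovered 97% of the 2-fold and 95% of the 4-fold changes with 8 false calls. These calls used the adjusted p-value alone, so the recovery does not describe DEGs, which must also pass the fold threshold.

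Exact tests and ratios used Python 3.11.15, numpy 2.4.6, scipy 1.17.1 and pandas 2.3.3, and figures matplotlib 3.10.9. Positions, exon overlaps and coding transcripts came from GENCODE vM21 (GRCm38), and promoter windows from RefSeq. Alternatives were DESeq2 1.42.0, other scalings and filters, 1 RUVs factor, a replicate block, a test against the fold threshold (glmTreat) and the omission of each sample. Of each gene list, the DEGs (up to 6 by size) and the most abundant gene were to be named, with every SLRP gene and every gene that shares exon bases with one. Most marker genes are given as counts and sums. The members and lists were chosen with earlier results of these data known. Protein sequences were not analysed here.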

Additional observations from a re-analysis of the deposited data

How the results depend on the processing

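The SLRP results were recomputed under 16 alternatives. In each of them 1 gene of the group was a DEG that rose and 4 or 5 were DEGs that fell, the fifth being *Aspn* with no filter on low counts. That call of *Aspn* rests on few reads and on a spread pooled over genes. The log2 fold change ran from 1.49 to 1.54 for *Dcn*, from -2.12 to -2.05 for *Fmod*, from -2.68 to -2.56 for *Omd*, from -1.77 to -1.73 for *Ogn* and from -1.47 to -1.39 for *Chad*, and these 5 passed the test in every alternative. *Bgn* (-0.67 to -0.63), *Lum* (-0.47 to -0.40), *Prelp* (0.48 to 0.56) and *Epyc* (-0.44 to -0.35) kept their direction and were DEGs in no alternative. Their adjusted p-value was under 0.05 in every alternative but 1. That was the test against a log2 fold change of 1 (glmTreat), which asks for a larger change by construction. Over all genes, DEGs that rose numbered 412, and 635 with no filter, 266 where all 8 samples had to exceed a CPM of 1, 262 with glmTreat and 413 to 455 when each sample was left out. DEGs that fell numbered 339, and 571 with no filter, 245 under that stricter filter, 175 with glmTreat and 342 to 380 when each sample was left out. Fewer or more genes were tested under the other filters (12964 and 32379). DESeq2 called 414 and 343, and 1 RUVs factor gave 411 and 341.

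Samples with the same replicate number did not deviate together (r from -0.0653 to 0.0321 over genes, other pairs -0.0712 to 0.0797). These values showed no pairing by number, but they cannot exclude a shared animal or culture. With a replicate block, 411 DEGs rose and 340 fell, with 745 of the 751 shared, and the 5 DEGs of the SLRP group were called as before. The log2 ratios of gene pairs kept their sign in all 10 of their alternatives, in which 3 against 4 samples cannot give an exact p-value under 0.0571 and 4 pairs none under 0.125. The shares and ratios per kilobase of the coding transcript were chosen after seeing the data. The depth leaves *Aspn* without a test in the filtered table, at no more than 14 reads in a sample.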

Other observations

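Matches to the seed of miR-146a-5p, the miRNA of the wider study, were looked for in each gene's principal coding transcript, within its 3′ UTR, as 7mers or as 6 bases followed by A. The 10 SLRP genes held 0 such sites, where 19.2% of 11866 tested genes held at least 1 by the same definition. This describes letters in these UTRs and no measured effect.

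In 46 groups of 4 values, those of the 10 SLRP genes, the 6 tested relatives, the 6 ratios and the total counts in each treatment, 0 held a sample farther from the others than Dixon's critical value at 95% allows, where chance alone gives about 2.3. *Kera* and *Nyx*, below the filter on low counts, were not examined in this way.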
